A study of Mus musculus with 4 samples.

Results

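The cells described here are monocyte-like cells of mouse bone marrow, 747 of 16280 cells measured by droplet single-cell RNA sequencing. A cell was counted as a member when it held at least 1 UMI (unique molecular identifier, a tag that marks 1 captured RNA molecule) of at least 3 of the monocyte genes Ccr2, Fn1, Ms4a4c, S100a4, Clec4a3 and Csf1r, and at least 1 UMI of the lysosomal protease gene Ctss. It also had to hold fewer than 10 UMIs per 10000 of the granule enzyme gene Mpo, fewer than 200 per 10000 of S100a8 and S100a9 together, and no UMI of the B cell gene Cd79a, the plasmacytoid dendritic cell gene Siglech or the T cell gene Cd3e. The members were therefore chosen by their own expression, and every value of these 13 genes is bounded by that choice.

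The series compared marrow with a heterozygous Idh1-R132H allele (Idh1-R132H, 2 mice) with marrow carrying wild-type Idh1 (Idh1-WT, 2 mice), and its title places the question in neutrophil production. In all mice, 5 days of tamoxifen switched on an EYFP reporter, and in the Idh1-R132H donors the mutant allele too. After 2 weeks, EYFP+ lineage-negative marrow cells were transplanted into irradiated mice with no supporting marrow, and the chimeric marrow was collected 16 weeks later. Both groups are thus irradiated chimeras exposed to tamoxifen, and the labels used here name neither the promoter of the recombinase nor the identity or sex of each donor. For each mouse, 4000 sorted cells each of 3 EYFP+ populations, namely all CD45.1+ cells, lineage-negative Sca1+cKit+ cells and lineage-negative cKit+ cells, were pooled in 1 tube and gave 1 library. The share of monocytes in a library is therefore set by the sort as well as by the marrow.

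Monocytes are made in the marrow from progenitors shared with neutrophils. In the mouse, classical monocytes carry much Ly6C and the chemokine receptor CCR2, which they use to leave the marrow, and they can convert into non-classical monocytes, which carry little Ly6C, depend on the transcription factor Nr4a1 and patrol vessels. Monocytes respond strongly to interferons, whose target genes encode antiviral proteins and parts of MHC class I, the complex that shows peptides from inside the cell to CD8 T cells. MHC class II, which shows engulfed material to CD4 T cells, is kept low in most classical monocytes and is abundant in dendritic cells and in some monocytes that share features with them.

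The 4 libraries held 40364701 to 56353466 UMIs. There were 193 and 239 members in the Idh1-R132H libraries, against 160 and 155 in the Idh1-WT libraries, and their summed UMIs were 1163974 and 1475588 in Idh1-R132H, against 1057723 and 1037841 in Idh1-WT. A member held a median of 4946 and 5057 UMIs in Idh1-R132H and of 5293.5 and 5287 in Idh1-WT. No barcode was a member in 2 libraries, while 345 kept barcodes occurred both in Idh1-R132H 1 and in Idh1-WT 1, against 13 to 33 for the other pairs of libraries. The libraries also differed in the sex-linked RNA of their cells. With every cell thinned to 2000 UMIs, 27.2% and 28.3% of Idh1-R132H members had a UMI of Xist, the RNA that silences an X chromosome in females, against 46.5% and 36.4% of Idh1-WT members (45.6% and 41.0% against 66.25% and 58.7% without thinning). A Y-linked UMI was present in 8.38% and 9.28% of thinned Idh1-R132H members and in 1.27% and 2.60% of thinned Idh1-WT members (25.9% and 26.4% against 3.125% and 12.9% without thinning). Each library therefore held both kinds of cell in unequal shares, and the genotype comparison cannot be told apart from the cells' sex at the level of all members. Of the 73 genes called between the genotypes below, 66 could be tested in Xist-carrying members alone, and 30 of these were called there. The named genes that were not are given with their values there. This setting kept members with an Xist and no Y-linked UMI, 81 and 90 in Idh1-R132H and 106 and 91 in Idh1-WT. With fewer cells, a call lost there is not shown to depend on sex.

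The rule's own genes describe the members. Ccr2 reached 749 and 612 counts per 1000000 UMIs (CPM) in the summed members of the Idh1-R132H libraries and 742 and 686 CPM in those of Idh1-WT, while all other cells held 17.8 and 17.1 CPM in Idh1-R132H and 18.5 CPM in both Idh1-WT libraries. Fn1, which encodes fibronectin, stood at 515, 520, 442 and 461 CPM in members of Idh1-R132H 1 and 2 and Idh1-WT 1 and 2, against 2.17 to 2.96 CPM in other cells. Of the members, 87 carried 3 of the 6 marker genes, 172 carried 4, 264 carried 5 and 224 carried all 6, while 99 cells missed the rule by carrying only 2. At the Mpo limit, 55 members held 8 to under 10 UMIs per 10000, and 32 cells were kept out only by 10 to under 12. The limits on S100a8 and S100a9 mattered less, with 4 members between 150 and 200 and no cell kept out between 200 and 250.

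Marker genes of other cell types, which the rule did not use, were low in the members for neutrophils, B cells and T and NK cells, while macrophage and plasmacytoid dendritic cell genes were higher than in other cells. Summed over 14 neutrophil genes the members held 974 and 1244 CPM in Idh1-R132H and 1127 and 991 CPM in Idh1-WT, against 7656 to 11009 CPM in other cells. Over 12 B cell genes they held 21.7 to 33.7 CPM, and over 12 T and NK cell genes 6.74 to 27.1 CPM. Over 12 conventional dendritic cell genes the sums were 259 and 230 CPM in Idh1-R132H members, against 350 and 343 CPM in Idh1-WT members, with Itgae at 0 in all members. Other cells held 283 and 288 CPM in Idh1-R132H and 298 and 310 CPM in Idh1-WT. Over 12 macrophage genes the members held 147 and 142 CPM in Idh1-R132H and 141 and 145 CPM in Idh1-WT, against 21.8 to 32.8 CPM in other cells. Over 10 plasmacytoid dendritic cell genes they held 481 and 483 CPM in Idh1-R132H and 461 and 423 CPM in Idh1-WT, against 243 to 290 CPM in other cells, with Klk1, Pacsin1 and Cd8b1 at 0 in all members. The part of these cell types in the results was not tested. RNA outside cells could account for at most 4.99% and 6.93% of the members' UMIs in Idh1-R132H and 6.83% and 7.20% in Idh1-WT, as bounded from genes of other cell types. No doublet caller was run.

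Members made up 5.02% (95% exact binomial interval 4.35 to 5.76) and 5.395% (4.75 to 6.10) of the cells of the Idh1-R132H libraries, against 3.55% (3.03 to 4.14) and 4.42% (3.77 to 5.16) of those of the Idh1-WT libraries. Both Idh1-R132H shares were the higher ones, at 5.21 ± 0.263% against 3.99 ± 0.615% (mean ± SD, n = 2 each), but the exact permutation test over libraries gave p = 0.333, the smallest it allows at this size. Set against the nearest earlier cells, a group of 1645 F13a1 Mpo progenitors (at least 10 Mpo UMIs per 10000 and at least 1 UMI each of F13a1, Irf8 and Ly6c2), members were 30.9% and 34.1% of members and progenitors together in Idh1-R132H and 24.9% and 36.5% in Idh1-WT. These shares overlapped (exact permutation p = 1). The intervals cover counting error only.

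Against all other cells of the same library, the members held many times more RNA of lysozyme and galectin-3. The same held for the interferon response list as a sum, while RNA of neutrophil and basophil granule genes was lower. Of 2664 genes with at least 50 CPM in the higher side, 343 (12.9%) were at least 2-fold higher in the members in every library and 163 (6.12%) at least 2-fold lower. This is a description, since the same cells were chosen by expression. Lyz2, which encodes lysozyme, stood at 35890 and 32119 CPM in Idh1-R132H members and at 30633 and 33083 CPM in Idh1-WT members, against 1240 to 1542 CPM in other cells. Lgals3, the gene of galectin-3, held 2653 to 3012 CPM in members and 79.5 to 99.6 CPM in other cells. Among the 15 genes with the largest ratios once the rule's own genes were left out were also Pld4, Ifi30, Ahnak, Tgfbi, Itgb7, Wfdc17, Psap, Ccl6, Pid1, Clec4a1 and the transcription factor gene Irf5. The 24 genes of the type I interferon response list summed to 9659 and 10607 CPM in Idh1-R132H members. They summed to 7630.5 and 7309 CPM in Idh1-WT members, against 1069 to 1290 CPM in other cells. Ifitm3 and Ifi27l2a, whose levels are given below, held most of the members' sums. On the low side stood genes of neutrophil and basophil granules, among them Camp, Ngp, Ltf, Lcn2, Ctsg, Mcpt8 and Prss34, with the elastase gene Elane at 630 and 790 CPM in Idh1-R132H members and 654 and 790 CPM in Idh1-WT members, against 6180 to 6499 CPM in other cells.

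**Figure D1:**
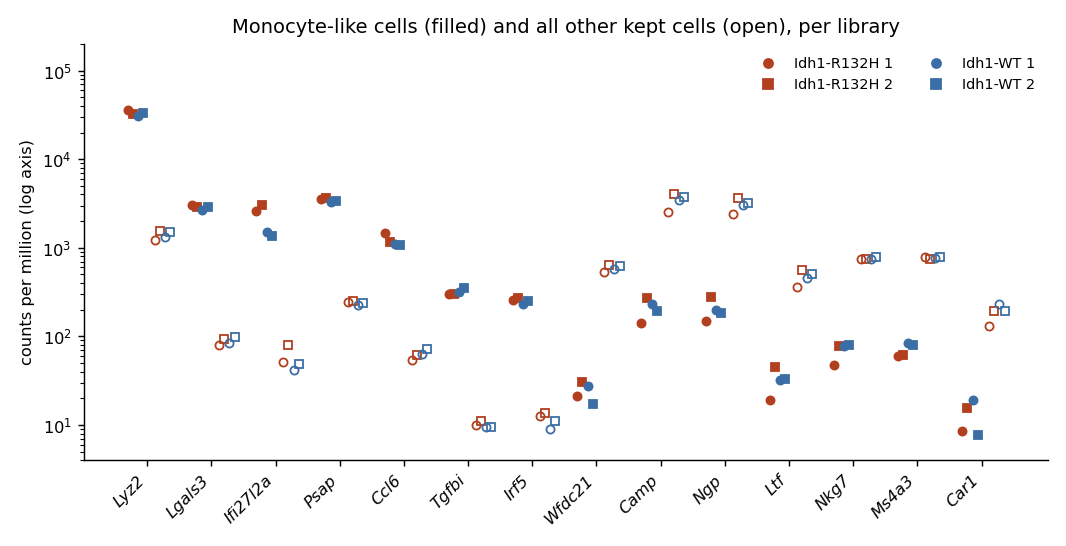
Levels in CPM on a log axis, per library, in monocyte-like cells (filled symbols) and in all other kept cells (open symbols), with both Idh1-R132H libraries to the left of both Idh1-WT libraries for each gene. Lyz2 sits between 30633 and 35890 CPM in the members of the 4 libraries and between 1240 and 1542 CPM in the other cells.

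Ly6c2, a gene of the Ly6C antigen, split the members very unequally. Members with 2 or more Ly6c2 UMIs numbered 174 and 208 in Idh1-R132H and 138 and 138 in Idh1-WT, which was 90.2% and 87.0% of the Idh1-R132H members and 86.25% and 89.0% of the Idh1-WT members. The means were 88.6 ± 2.21% and 87.6 ± 1.97% (SD, n = 2 each; exact permutation p = 0.667). The remaining 89 members, 19 and 31 in Idh1-R132H and 22 and 17 in Idh1-WT, held 0 or 1 UMI. Near the limit lay 45 members with 1 Ly6c2 UMI and 23 with 2, while a member typically held 11 and 13 Ly6c2 UMIs (medians of Idh1-R132H 1 and 2) or 9 and 11 (Idh1-WT 1 and 2). Median depth was lower in the cells with 0 or 1, at 3133 and 3843 UMIs in Idh1-R132H and 4492.5 and 4657 UMIs in Idh1-WT, than in those with 2 or more, at 5185 and 5291 UMIs in Idh1-R132H and 5414.5 and 5457 UMIs in Idh1-WT. The copy Ly6c1 was at 0 in all members, and reads of the near-identical genes Ly6c1 and Ly6c2 cannot be told apart here.

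Chil3, Slpi and F13a1 were among the genes with more RNA in the cells with 2 or more Ly6c2 UMIs, and the MHC class II genes H2-Aa, H2-Eb1, Cd74 and H2-Ab1 had the largest ratios in those with 0 or 1. Of 2179 genes, 16 (0.734%) were at least 2-fold higher in the 2+ cells in every library and 17 (0.780%) at least 2-fold lower, again as a description. Chil3, the gene of the chitinase-like protein Ym1, held 1118 and 1112 CPM in 2+ cells of Idh1-R132H and 1553 and 838 CPM in those of Idh1-WT, against 77.7 and 279 CPM in 0-1 cells of Idh1-R132H and 135 and 104 CPM in those of Idh1-WT. F13a1, the gene of a coagulation factor subunit, held 569 to 647 CPM in 2+ cells and 89.9 to 196 CPM in 0-1 cells. In the other direction, H2-Aa, the alpha chain gene of a class II molecule, held 191 and 236 CPM in 2+ cells of Idh1-R132H and 443 and 284 CPM in those of Idh1-WT, against 7211 and 4725 CPM in 0-1 cells of Idh1-R132H and 5939 and 8310 CPM in those of Idh1-WT. Cd74, the gene of the chain that guides class II through the cell, reached 14780 to 25138 CPM in 0-1 cells and 1038.5 to 1668.5 CPM in 2+ cells. The lectin gene Cd209a, known from monocyte-derived dendritic cells, and Gngt2, a G protein subunit gene, were also among the 17.

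The 89 cells with 0 or 1 Ly6c2 UMI were divided by markers of other cells. Pooled over libraries, 31 cells held a UMI of Cd209a, Flt3, Clec9a or Xcr1 (called dendritic markers here). These cells held 218 UMIs of Cd209a, while Xcr1 was at 0 in all 0-1 cells, so they are not shown to be conventional dendritic cells. They showed H2-Ab1 at 7397 CPM, Cd74 at 23338 CPM and Gngt2 at 103 CPM. A further 30 cells held Ace or Treml4, markers of non-classical monocytes, with Gngt2 at 2528 CPM, Pglyrp1 at 1389 CPM, Nr4a1 at 183 CPM, B2m at 9195 CPM and H2-Ab1 at 2238.5 CPM. The last 28 held neither, with H2-Ab1 at 6641 CPM and Gngt2 at 1037 CPM. Dendritic markers occurred in 6 of 19 and 7 of 31 of these cells in Idh1-R132H and in 10 of 22 and 8 of 17 in Idh1-WT, and Ace or Treml4 in 5 and 15 cells in Idh1-R132H and in 9 and 2 in Idh1-WT. Since the depth of these cells differed, shares are also given with all members thinned to 2000 UMIs. A dendritic marker was then held by 9.42% and 7.17% of members in Idh1-R132H and by 9.55% and 9.09% in Idh1-WT, against 1.64% and 3.10% of Cd79a-carrying cells in Idh1-R132H and 2.52% and 1.28% in Idh1-WT. Whether Cd79a-carrying cells lack every dendritic marker, Flt3 among them, was not tested, so their share is not a background for these markers. The dendritic shares of the members overlapped between the groups. After the same thinning, 3.14% and 7.17% in Idh1-R132H and 5.10% and 0.649% in Idh1-WT held Ace or Treml4, against 0.820% and 0.775% of thinned Cd79a-carrying cells in Idh1-R132H and, in Idh1-WT, 0 of 119 cells, which allows a share of up to 2.52%, and 0.641%. The Cd79a-carrying cells should lack Ace and Treml4. Their median depths were 2990 and 3532 UMIs in Idh1-R132H and 2862 and 2400 UMIs in Idh1-WT. The share of members with Ace or Treml4 in Idh1-WT 2 was thus at background.

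**Figure D2:**
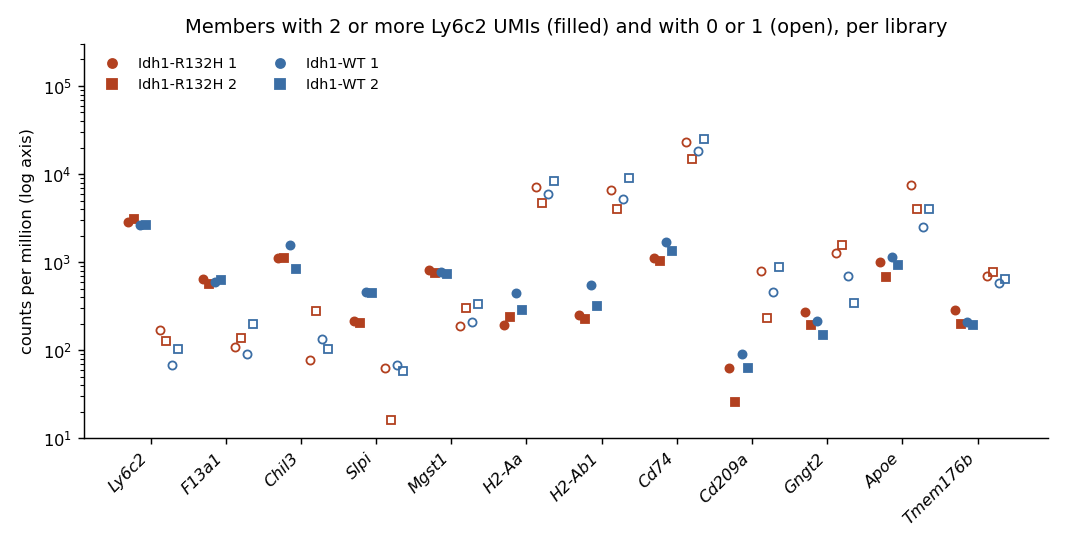
Levels in CPM on a log axis, per library, in members with 2 or more Ly6c2 UMIs (filled symbols) and with 0 or 1 (open symbols). For H2-Aa the open symbols lie between 4725 and 8310 CPM and the filled ones between 191 and 443.

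The genotype comparison summed the members of each library and tested 6900 genes between the 2 Idh1-R132H and the 2 Idh1-WT libraries with edgeR's quasi-likelihood test, with Benjamini-Hochberg adjustment over all genes and a threshold of 0.05. A total of 73 genes (1.06%) passed, 45 higher (0.652%) and 28 lower (0.406%) in Idh1-R132H. Among those higher were 5 genes of the interferon response list and 3 of the MHC class I list, and among those lower 4 MHC class II genes and the protease inhibitor gene Slpi. At an unadjusted p under 0.05 there were 578 genes, and DESeq2 called 19, all of them among the 73. With 2 mice per group the p-values rest on a spread pooled over genes, and 36.8% of all genes had groups that did not overlap. Called whichever 1 library was left out were 12 genes, and every other one of the 73 was not called without at least 1 library. The 12 were Ifi27l2a, B2m, Ifitm3, Pglyrp1, S100a4, Slpi, H2-Ab1, H2-Aa, H2-Eb1, Cd74 and the X-linked Xist and Xlr, of which S100a4 is a gene that the rule used.

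The interferon response list leaned towards Idh1-R132H. Of its 24 genes 23 were tested, of which 5 rose and none fell, 22 had the higher estimate in Idh1-R132H, and the median log2 fold change was 0.36, against 0.0035 over all genes tested. Rsad2, among the 5, passed the filter on low counts through Idh1-R132H alone, so it could only come out higher. Ifi27l2a, an interferon-alpha-inducible gene on chromosome 12 (GRCm38, 103442167 to 103443680, minus strand), had 3000 and 4533 UMIs in the Idh1-R132H members and 1580 and 1416 in the Idh1-WT members, which is 2577 and 3072 CPM against 1494 and 1364 CPM. Both Idh1-R132H libraries lay far above both Idh1-WT libraries, with a log2 fold change of 0.99 ± 0.061 (SE; edgeR adjusted p = 1.12e-55). The gene was not carried by a few cells. Its median per cell was 24.1 and 30.6 UMIs per 10000 in Idh1-R132H, against 12.6 and 12.5 in Idh1-WT, and 92.7% and 94.6% of Idh1-R132H members and 87.5% and 89.7% of Idh1-WT members held a UMI.

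Rsad2, which encodes the antiviral enzyme viperin, was sparse but showed the largest fold of the list, at 18.9 and 23.04 CPM in Idh1-R132H members against 6.62 and 5.78 CPM in Idh1-WT members (log2 fold change 1.76, edgeR adjusted p = 0.00527). It was held by 25 of 432 Idh1-R132H members and 8 of 315 Idh1-WT members, and 5 cells held 51.8% of its Idh1-R132H UMIs. Since the filter on low counts let it in through Idh1-R132H alone, its fold is no support for the lean of the list. Ifitm3, whose protein blocks the entry of viruses, held 5314 and 5369 CPM in Idh1-R132H and 4580 and 4323 CPM in Idh1-WT (log2 fold change 0.27, edgeR adjusted p = 0.000153). Ifitm2, its close paralog, which falls outside the rule for named genes and was chosen after its values were seen, moved by the same 0.27, and reads could be shared between the 2 genes. Slfn2, a schlafen gene that restrains the growth of leukocytes, held 533 and 590 CPM in Idh1-R132H and 449 and 435 CPM in Idh1-WT (log2 fold change 0.36). Rtp4, an interferon-induced gene, held 61.9 and 101 CPM in Idh1-R132H and 46.3 and 57.8 CPM in Idh1-WT (log2 fold change 0.68, edgeR adjusted p = 0.0288). The number of risen genes in the list depended on single libraries, with 2 left, and 17 of 23 estimates higher, without Idh1-R132H 2. Among Xist-carrying members 3 rose, Rtp4 (0.75) did not pass and Rsad2 had no value. Ifitm2 (0.25), which is outside the list, did not pass there either.

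The MHC class I list had 3 risen genes among 10 tested, which were B2m and the heavy chain genes H2-K1 and H2-D1, while the median of the list was 0.06 and estimates were split at 5 higher and 5 lower. B2m, the gene of the light chain shared by all class I molecules (chromosome 2, 122147686 to 122153083, plus strand), held 4924 and 5243 CPM in Idh1-R132H members and 4258 and 3915 CPM in Idh1-WT members. The groups did not overlap, and the log2 fold change was 0.33 ± 0.054 (SE; edgeR adjusted p = 1.49e-06). H2-D1 (chromosome 17, 35262730 to 35267499, plus strand) held 2667 and 2810 CPM in Idh1-R132H and 2357 and 2191 CPM in Idh1-WT, a log2 fold change of 0.28 (edgeR adjusted p = 0.00064). H2-K1 (chromosome 17, 33996017 to 34000347, minus strand) held 704 and 817 CPM in Idh1-R132H and 645 and 578 CPM in Idh1-WT, a log2 fold change of 0.33 (edgeR adjusted p = 0.00362). Reads of these 2 heavy chain genes could be shared, since they are near-identical over long stretches. Of these 3 genes, B2m was called whichever library was left out, while H2-K1 and H2-D1 were lost without Idh1-R132H 2 and without Idh1-WT 2. All 3 passed in Xist-carrying members.

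The promoters of 3 risen class I genes and of the interferon gene Rsad2 are shown because these genes were called higher, Rsad2 with the limit of the filter given above. Each runs from 250 bases before to 50 bases after a gene start in RefSeq (GRCm38.p6), 5′ to 3′ on the gene's strand, and capitals mark the motif AANNGAAA on either strand, the core bound by interferon regulatory factors. B2m covers chr2:122147437-122147736 on the plus strand, H2-K1 chr17:34000298-34000597 on the minus strand (the first of 2 windows listed), H2-D1 chr17:35262844-35263143 on the plus strand and Rsad2 chr12:26456403-26456702 on the minus strand.
B2m: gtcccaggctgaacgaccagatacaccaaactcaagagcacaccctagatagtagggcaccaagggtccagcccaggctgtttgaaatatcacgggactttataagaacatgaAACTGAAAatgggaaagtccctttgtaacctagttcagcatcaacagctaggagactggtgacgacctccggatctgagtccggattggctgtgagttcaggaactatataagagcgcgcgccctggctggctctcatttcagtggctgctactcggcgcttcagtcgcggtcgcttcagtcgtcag
H2-K1: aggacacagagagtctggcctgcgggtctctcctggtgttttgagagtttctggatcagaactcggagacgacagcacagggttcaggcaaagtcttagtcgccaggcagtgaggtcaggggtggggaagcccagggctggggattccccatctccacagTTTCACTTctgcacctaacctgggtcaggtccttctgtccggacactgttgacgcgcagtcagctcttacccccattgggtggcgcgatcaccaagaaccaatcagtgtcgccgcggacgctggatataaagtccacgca
H2-D1: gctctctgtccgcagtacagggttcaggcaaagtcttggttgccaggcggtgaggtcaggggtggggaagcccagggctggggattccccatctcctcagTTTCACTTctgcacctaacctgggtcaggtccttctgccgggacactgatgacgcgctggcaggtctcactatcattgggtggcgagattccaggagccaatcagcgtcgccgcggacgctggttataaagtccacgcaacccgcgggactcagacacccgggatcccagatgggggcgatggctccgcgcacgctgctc
Rsad2: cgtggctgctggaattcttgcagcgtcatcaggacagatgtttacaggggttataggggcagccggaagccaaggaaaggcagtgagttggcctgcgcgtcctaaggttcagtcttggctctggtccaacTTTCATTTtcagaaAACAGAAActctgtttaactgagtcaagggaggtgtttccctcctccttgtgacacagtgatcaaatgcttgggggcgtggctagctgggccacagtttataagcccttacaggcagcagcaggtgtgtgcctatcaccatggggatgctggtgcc
The motif began 137 bases before the gene start in B2m, 90 before it in H2-K1 and 150 before it in H2-D1, and at 120 and 106 bases before it in Rsad2. It was read on the reverse strand in H2-K1 and H2-D1, where the same letters TTTCACTT stand. The motif occurs in 23.9% of 32851 promoter windows. It also began 213 bases before the gene start of the class II gene H2-Aa, which fell. A match describes the letters and shows no binding. Ifi27l2a and Rtp4 had no window in the table.

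MHC class II genes were lower in the summed Idh1-R132H members. Of 8 genes in the list 7 were tested, 4 fell, none rose, and the median log2 fold change was -0.75. H2-Ab1, the beta chain gene of the I-A molecule (chromosome 17, 34257689 to 34269419, plus strand), held 600 and 552 CPM in Idh1-R132H members, against 1133 and 1048 CPM in Idh1-WT members (log2 fold change -0.91 ± 0.072, edgeR adjusted p = 1.12e-32). Its partner H2-Aa (34282744 to 34287823, minus strand) held 579 and 617 CPM in Idh1-R132H, against 1136 and 954 CPM in Idh1-WT (log2 fold change -0.79 ± 0.072). H2-Eb1, the beta chain gene of the I-E molecule (34305867 to 34316674, plus strand), held 326 and 301 CPM in Idh1-R132H, against 564 and 495 CPM in Idh1-WT (log2 fold change -0.75 ± 0.088). Cd74 held 2349 and 2207 CPM in Idh1-R132H, against 3757 and 3310 CPM in Idh1-WT (log2 fold change -0.62 ± 0.057). The groups did not overlap for any of the 4. The SE and p-values of these genes rest on the spread pooled over genes and do not measure how each of them varies between mice. H2-DMb1, part of the molecule that loads class II with peptide, had a log2 fold change of -0.23 and did not pass (edgeR adjusted p = 0.616).

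Most class II UMIs of the members lay in the 89 cells with 0 or 1 Ly6c2 UMIs, and a few cells held many of them. The 5 richest cells held 29.5% of the H2-Ab1 UMIs, 29.8% of H2-Aa, 32.8% of H2-Eb1 and 23.1% of Cd74 in the Idh1-WT libraries. A UMI of Cd74 was held by 42.5% and 54.8% of Idh1-R132H members and by 54.4% and 55.5% of Idh1-WT members, which overlapped. The Cd74 medians of 0 and 1.31 UMIs per 10000 in Idh1-R132H and 1.11 and 1.018 in Idh1-WT overlapped too. A UMI of H2-Ab1 was held by 18.7% and 20.9% of Idh1-R132H members and by 26.25% and 27.1% of Idh1-WT members, which did not overlap. These shares were not thinned to equal depth. The 0-1 Ly6c2 cells contributed 63.5% of all H2-Ab1 UMIs of the members, 68.0% of H2-Aa, 69.9% of H2-Eb1 and 59.4% of Cd74, and these cells held 5.53% and 8.51% of the members' UMIs in Idh1-R132H and 12.6% and 8.35% in Idh1-WT. Within the 0-1 cells the groups overlapped for all 4 genes and none passed, with H2-Ab1 at 6527.5 and 4048 CPM in Idh1-R132H and 5212 and 9106 CPM in Idh1-WT (log2 fold change -0.38, edgeR adjusted p = 0.795). Among Xist-carrying members alone none of the 4 passed, with log2 fold changes of -0.74, -0.61, -0.43 and -0.37 for H2-Ab1, H2-Aa, H2-Eb1 and Cd74. With at least 4 of the 6 markers required, H2-Ab1 (-0.67) and Cd74 (-0.46) were lost and H2-Aa and H2-Eb1 were kept. Without members carrying a dendritic marker UMI all 4 passed, with values of -0.94, -0.65, -0.75 and -0.54. In sums of this kind fewer cells with a gene and less RNA per cell cannot be told apart.

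The promoters of H2-Aa and H2-Eb1 are shown as the class II genes with a window among those that fell. Capitals mark ATTGG on either strand, the core of the Y box known from class II promoters, in H2-Aa at chr17:34287774-34288073 on the minus strand and in H2-Eb1 at chr17:34305617-34305916 on the plus strand.
H2-Aa: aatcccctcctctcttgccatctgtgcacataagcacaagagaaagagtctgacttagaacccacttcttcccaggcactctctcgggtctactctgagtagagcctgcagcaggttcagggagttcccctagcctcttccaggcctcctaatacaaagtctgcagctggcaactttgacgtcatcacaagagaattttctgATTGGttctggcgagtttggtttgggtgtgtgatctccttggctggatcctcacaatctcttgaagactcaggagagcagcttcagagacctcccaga
H2-Eb1: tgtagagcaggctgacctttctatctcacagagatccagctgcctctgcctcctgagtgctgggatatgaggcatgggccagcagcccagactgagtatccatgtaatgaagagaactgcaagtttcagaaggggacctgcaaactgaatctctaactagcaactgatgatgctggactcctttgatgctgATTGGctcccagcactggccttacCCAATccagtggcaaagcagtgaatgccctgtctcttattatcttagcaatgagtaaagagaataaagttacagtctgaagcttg
In H2-Aa the motif began 48 bases before the gene start, and in H2-Eb1 59 and, on the reverse strand, 35 bases before it. It stands in 37.4% of all promoter windows, including those of the class I genes B2m, H2-K1 and H2-D1 printed above. H2-Ab1 had no window in the table.

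**Figure D3:**
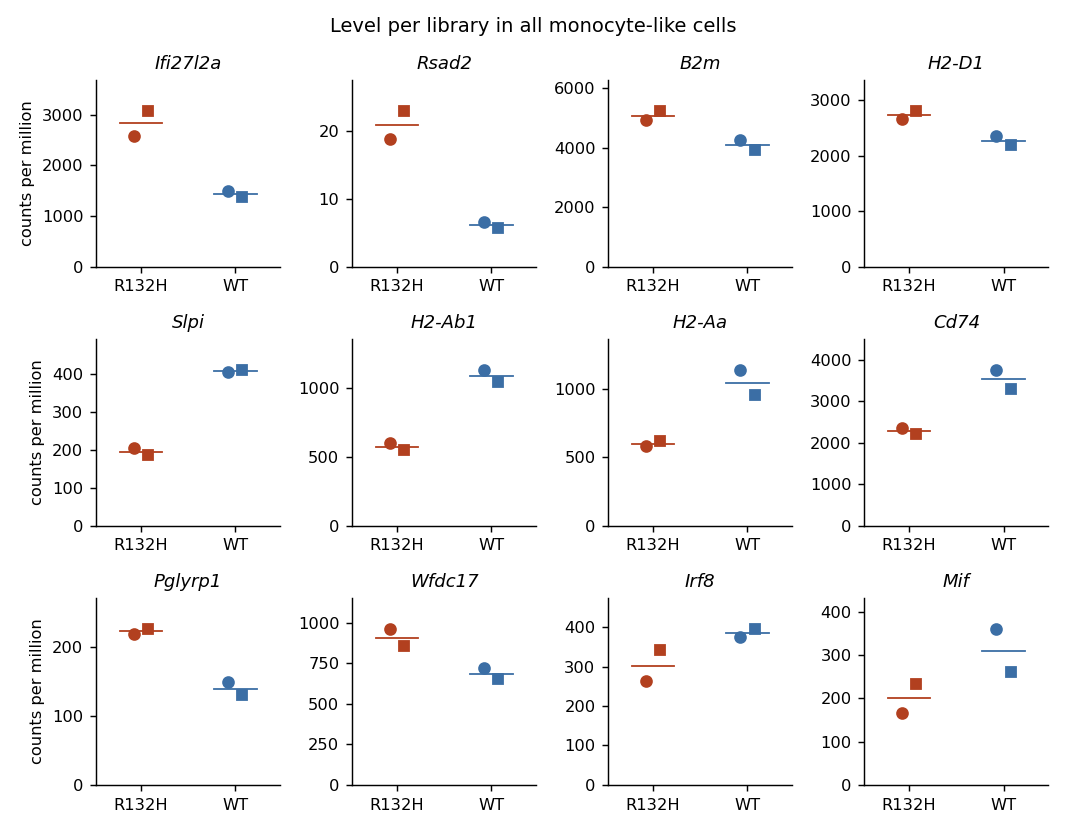
Levels of single genes in CPM in all monocyte-like cells, 1 point per library, with Idh1-R132H left of Idh1-WT and each axis starting at 0. Ifi27l2a lies at 2577 and 3072 in Idh1-R132H and at 1494 and 1364 in Idh1-WT, and Slpi at 204 and 186 in Idh1-R132H and at 407 and 411 in Idh1-WT.

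Slpi, the gene of a secreted inhibitor that protects tissue from leukocyte proteases, had the largest fall among the named genes of at least moderate level. It held 204 and 186 CPM in Idh1-R132H members and 407 and 411 CPM in Idh1-WT members (log2 fold change -1.06 ± 0.099, edgeR adjusted p = 9.02e-24), and it lay almost wholly in 2+ Ly6c2 cells, since 1.46% of its UMIs were in 0-1 cells. A UMI of Slpi was found in 201 of 432 Idh1-R132H members and in 203 of 315 Idh1-WT members. Padi4, the gene of an enzyme that converts arginine to citrulline in histones, held 23.2 and 19.0 CPM in Idh1-R132H and 46.3 and 37.6 CPM in Idh1-WT (log2 fold change -0.996, edgeR adjusted p = 0.0197). Prtn3, the proteinase 3 gene of primary granules, held 486 and 536 CPM in Idh1-R132H and 609 and 669 CPM in Idh1-WT (log2 fold change -0.31, edgeR adjusted p = 0.0145). It was the only called gene of 11 tested in the primary granule and progenitor list, of which 9 had lower estimates. Its log2 fold change was -0.02 once the 10% of members richest in granulocytic RNA were left out. That RNA was scored by Elane, Prtn3, Ctsg, Retnlg and Ltf. Cells were thus removed in part by their own Prtn3 UMIs, and this value is no separate check of the fall. That removal left 12 of the 73 genes called. In Xist-carrying members Slpi and Prtn3 passed and Padi4 did not (-0.78).

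Of 16 tested genes of the non-classical monocyte list 4 rose in Idh1-R132H members, none fell and 14 had the higher estimate. Cd36, among the 4, passed the filter on low counts through Idh1-R132H alone, so it could only come out higher and is no support for these counts. The median log2 fold change was 0.49, against 0.0035 over all genes tested, of which 50.5% had the higher estimate. Pglyrp1, which encodes a peptidoglycan-binding protein, held 220 and 226 CPM in Idh1-R132H and 149 and 130 CPM in Idh1-WT (log2 fold change 0.69 ± 0.119, edgeR adjusted p = 5.34e-06). Gngt2 held 323 and 306 CPM in Idh1-R132H and 273 and 166 CPM in Idh1-WT (log2 fold change 0.52, edgeR adjusted p = 0.00241). Pou2f2, the gene of the transcription factor Oct-2, held 87.6 and 112.5 CPM in Idh1-R132H and 57.7 and 77.1 CPM in Idh1-WT (log2 fold change 0.59), and did not pass in Xist-carrying members (0.74). The scavenger receptor gene Cd36 had 14 and 16 UMIs in Idh1-R132H and none in either Idh1-WT library, at least 7.94-fold higher when 3 counts are taken as the floor of the whole Idh1-WT group, with 66.7% of its UMIs in 5 cells. Without Idh1-WT 2, the library with the fewest Ace or Treml4 carriers, 1 gene of the list rose, 10 of 17 estimates were higher and Gngt2 was lost at a log2 fold change of 0.20. Nr4a1 overlapped between groups at 19.8 and 25.1 CPM in Idh1-R132H and 26.5 and 9.64 CPM in Idh1-WT, and Cx3cr1, the fractalkine receptor gene, did not pass (log2 fold change 0.37, edgeR adjusted p = 0.36).

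In the classical monocyte list, Plac8, a small cysteine-rich protein gene, was the only one of 15 tested genes that passed, at 2991 and 3301 CPM in Idh1-R132H and 2664 and 2663 CPM in Idh1-WT (log2 fold change 0.25). F13a1 had a log2 fold change of 0.04 with overlapping groups. Ly6c2 itself, chosen after its values were seen, held 2676 and 2835 CPM in Idh1-R132H and 2288 and 2432 CPM in Idh1-WT (log2 fold change 0.23, edgeR adjusted p = 0.00863). Among 17 tested transcription factor genes 2 rose and 1 fell. Besides Pou2f2 these were Klf2, at 350 and 355 CPM in Idh1-R132H and 270 and 291 CPM in Idh1-WT, and Irf8, the factor that directs progenitors to monocytes and dendritic cells, at 263 and 342 CPM in Idh1-R132H and 375 and 395 CPM in Idh1-WT (log2 fold change -0.33, edgeR adjusted p = 0.0387). The Irf8 call was lost without Idh1-R132H 1, at a log2 fold change of -0.17, and without either Idh1-WT library. Irf5 (log2 fold change 0.17) and Klf4 (0.03) did not pass. In Xist-carrying members Plac8 (0.18), Klf2 (0.31) and Irf8 (-0.39) did not pass.

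Among 11 tested cytokine and chemokine genes 2 rose. The chemokine gene Ccl6 held 1454.5 and 1164 CPM in Idh1-R132H and 1103 and 1072 CPM in Idh1-WT, and Wfdc17, a secreted protease inhibitor gene, 960 and 856 CPM in Idh1-R132H and 721 and 651 CPM in Idh1-WT (log2 fold change 0.41, edgeR adjusted p = 8.35e-06). Of 20 tested Fc, Toll-like and lectin receptor genes 2 rose. They were Cd36, which passed the filter on low counts through Idh1-R132H alone, and the lectin gene Clec4a1. Clec4a1 had 255 and 285 UMIs in Idh1-R132H and 167 and 137 UMIs in Idh1-WT (log2 fold change 0.51). Cd44, the hyaluronan receptor gene, rose by 0.60 on the log2 scale. The protease genes Ctsc and Ctsb rose by 0.31 and 0.29, as 2 of 19 lysosomal genes, and Cybb, the membrane subunit of the NADPH oxidase, by 0.30, as 1 of 7. Of the genes of the rule, S100a4 (0.37), Clec4a3 (0.46) and Csf1r (0.44), were called higher too, though the rule bounds them. In Xist-carrying members Cd44 (0.46), Ctsc (0.34), Cybb (0.28) and Csf1r (0.54) did not pass.

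Several further genes fell. C1qbp, which encodes a mitochondrial matrix protein, held 95.4 and 88.1 CPM in Idh1-R132H and 142 and 143 CPM in Idh1-WT (log2 fold change -0.63, edgeR adjusted p = 0.00362). Stip1, a co-chaperone gene, held 65.3 and 48.1 CPM in Idh1-R132H and 82.3 and 104 CPM in Idh1-WT (log2 fold change -0.72), and Hmgn1, a nucleosome-binding protein gene, had a log2 fold change of -0.66. Mif, a cytokine gene, held 167 and 234 CPM in Idh1-R132H and 360 and 261 CPM in Idh1-WT (log2 fold change -0.61), and Lgals1, the galectin-1 gene, 1543 and 1597 CPM in Idh1-R132H and 1829 and 2184 CPM in Idh1-WT (log2 fold change -0.34). Stip1 (-0.57) and Hmgn1 (-0.69) did not pass in Xist-carrying members. Of 14 S phase genes none passed and 13 had the lower estimate, with a median of -0.12, but among Xist-carrying members 7 of 13 had the higher estimate. None of 18 G2 and M phase genes passed. With cells thinned to 2000 UMIs, Mki67 or Top2a, genes of dividing cells, were present in 19.9% and 25.7% of Idh1-R132H members and in 23.6% and 24.0% of Idh1-WT members.

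Idh1, the mutated gene, and Idh2 did not pass the test. Idh1 held 226 and 224 CPM in Idh1-R132H members and 197 and 238 CPM in Idh1-WT members (log2 fold change 0.06, edgeR adjusted p = 0.955), and UMIs counted per gene do not show the R132H base. Idh2 had a log2 fold change of -0.30 (edgeR adjusted p = 0.589). None of 8 genes of isocitrate and 2-hydroxyglutarate metabolism and none of 4 TET and DNA methylation genes passed. Gt(ROSA)26Sor, the transcript of a locus often used for reporter alleles, held 14.6 and 19.0 CPM in Idh1-R132H and 7.56 and 7.71 CPM in Idh1-WT (log2 fold change 1.15, edgeR adjusted p = 0.231). Sex-linked genes were called: Xist held 304 and 305 CPM in Idh1-R132H and 476 and 431 CPM in Idh1-WT, and the Y-linked Eif2s3y, chosen after its values were seen, 34.4 and 35.9 CPM in Idh1-R132H and 5.67 and 15.4 CPM in Idh1-WT. Xlr, an X-linked gene of a family with near-identical copies, also chosen after its values were seen, held 39.5 and 52.2 CPM in Idh1-R132H and 12.3 and 0 CPM in Idh1-WT. Gt(ROSA)26Sor, Eif2s3y and Xlr passed the filter on low counts only through Idh1-R132H.

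**Figure D4:**
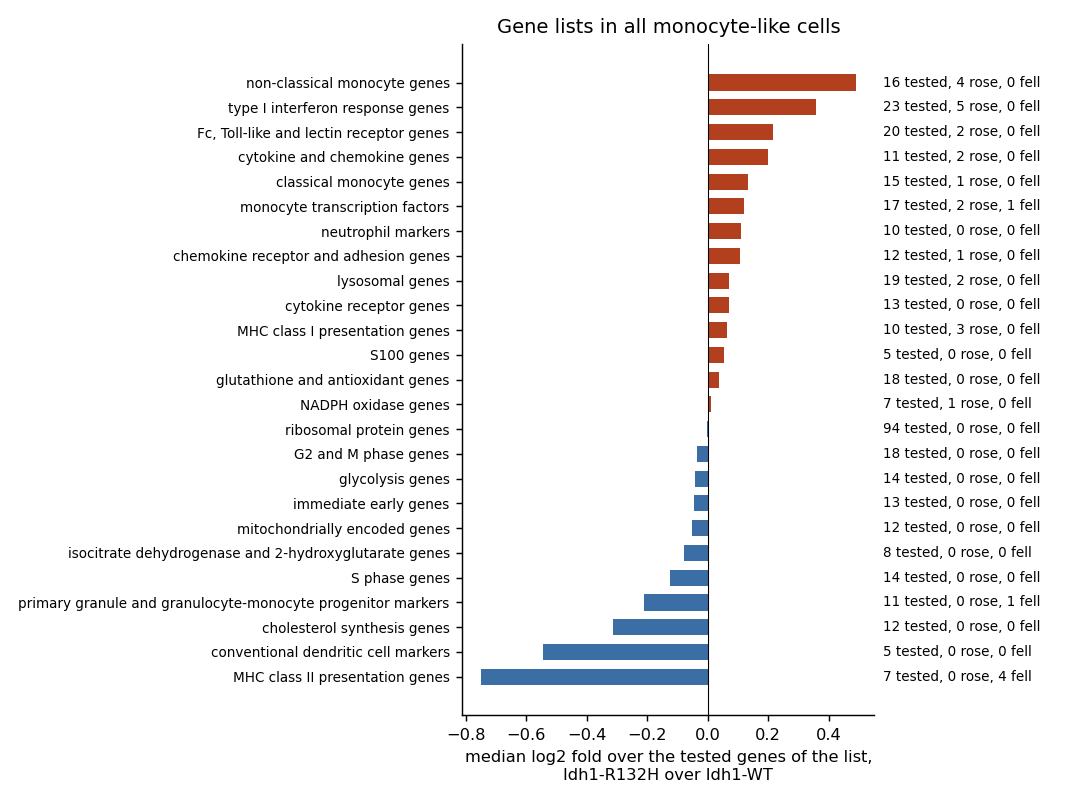
Median log2 fold change, Idh1-R132H over Idh1-WT, over the tested genes of each list in all monocyte-like cells. The interferon list lies at 0.36 and the MHC class II list at -0.75, while the median over all genes is near 0.

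In the 658 members with 2 or more Ly6c2 UMIs, 38 of 6649 genes (0.572%) passed, 19 in each direction (0.286% each), and DESeq2 called 2, Ifi27l2a and Slpi. Of the 38, 6 were called whichever library was left out. The groups did not overlap for 35.5% of genes. Ifi27l2a held 2588 and 3116 CPM in Idh1-R132H and 1542 and 1378 CPM in Idh1-WT (log2 fold change 0.98, edgeR adjusted p = 2.47e-57). Slpi held 213 and 201 CPM in Idh1-R132H and 456 and 444 CPM in Idh1-WT (log2 fold change -1.11, edgeR adjusted p = 1.14e-24). These 2 genes were called under all 20 settings tried. B2m, H2-K1 and H2-D1 rose by 0.28, 0.30 and 0.23, and Ifitm3 and Rsad2 by 0.23 and 1.66. Rsad2 again passed the filter on low counts through Idh1-R132H alone. Tmem176a, a membrane channel gene of myeloid cells, held 160 and 130 CPM in Idh1-R132H and 107 and 87.3 CPM in Idh1-WT (log2 fold change 0.58, edgeR adjusted p = 0.0284). This call was lost with Ly6c2 counted per 10000 UMIs, without dendritic marker cells, without the 10% richest in granulocytic RNA, in Xist-carrying cells, with DESeq2 and without Idh1-R132H 1 or Idh1-WT 2. Padi4 and Prtn3 fell by 1.04 and 0.34.

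Class II genes in the 2+ cells were low and uneven. H2-Aa (-0.75), H2-Eb1 (-0.80) and Cd74 (-0.46) passed, and H2-Ab1 (-0.83) did not (edgeR adjusted p = 0.892). The 5 richest cells held 62.6% of the H2-Aa UMIs and 68.6% of the H2-Eb1 UMIs of the Idh1-WT libraries. The 3 calls were lost without cells carrying a dendritic marker, with at least 4 markers, with Ly6c2 counted per 10000 UMIs, in Xist-carrying cells and with DESeq2. Cd209a also passed (log2 fold change -0.84, edgeR adjusted p = 0.0221), at 61.8 and 25.9 CPM in Idh1-R132H and 89.8 and 63.1 CPM in Idh1-WT, where 5 cells held 53.8% of its UMIs. It was lost with at least 4 markers, with Ly6c2 counted per 10000 UMIs, in Xist-carrying cells, with DESeq2, without shared barcodes, without the top 5% by UMIs, without the 10% richest in granulocytic RNA and without Idh1-R132H 2 or Idh1-WT 1.

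In the 89 members with 0 or 1 Ly6c2 UMIs, 33 of 1440 genes (2.29%) passed, 23 higher (1.60%) and 10 lower (0.694%), and DESeq2 called 5. Of the 33, 2 were called whichever library was left out. The groups did not overlap for 44.1% of genes. Ifi27l2a held 2393 and 2597.5 CPM in Idh1-R132H and 1161 and 1212 CPM in Idh1-WT (log2 fold change 1.14, edgeR adjusted p = 0.00287). Of 9 tested interferon genes Ifi27l2a and Ifitm3 rose, and of 8 class I genes B2m, H2-D1 and H2-K1 rose, with B2m at 7211 and 8247 CPM in Idh1-R132H and 4928 and 3901 CPM in Idh1-WT (log2 fold change 0.87, edgeR adjusted p = 0.00697). Gngt2 held 1274 and 1546 CPM in Idh1-R132H and 696 and 346 CPM in Idh1-WT (log2 fold change 1.46, edgeR adjusted p = 0.00697), and Clec4a1, Cybb, Samhd1 and Lst1 rose by 1.15 to 1.58. All 8 tested non-classical genes had higher estimates, with a median of 1.33, against 49.0% of all 1440 genes and a median of -0.013. Summed over the list, the 0-1 cells held 4165 and 4494 CPM in Idh1-R132H and 2419 and 900 CPM in Idh1-WT. The lowest sum, in Idh1-WT 2, came from 17 cells, of which 2 held Ace or Treml4.

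On the low side of the Idh1-R132H 0-1 cells stood Irf8, Id2 and genes of cell division. Irf8 held 171 and 215 CPM in Idh1-R132H and 464 and 704 CPM in Idh1-WT (log2 fold change -1.48, edgeR adjusted p = 0.0158), and Id2, a regulator needed by several dendritic and lymphoid cells, had a log2 fold change of -1.78. Of 18 G2 and M phase genes 9 were tested. Nusap1, Hmgb2 and Ccnb1 fell and all 9 had lower estimates, against 734 of all 1440 genes tested. Ccnb1 passed the filter on low counts through Idh1-WT alone, so it could only come out lower. The count of 9 was thus set in part by the filter. A few of the 39 Idh1-WT cells held most of these UMIs, as the 5 richest held 88.6% of Nusap1, 61.4% of Hmgb2 and 84.4% of Ccnb1, and likewise 79.2% of Id2, 62.6% of Irf8 and 72.4% of Lgals1. Mki67 or Top2a UMIs occurred in 5 of 19 and 7 of 31 of these cells in Idh1-R132H and in 7 of 22 and 3 of 17 in Idh1-WT. Ccnb1, the cyclin B1 gene, had 1 and 2 UMIs in Idh1-R132H and 18 and 14 in Idh1-WT, a ratio of 0.109 (95% counting interval 0.0213 to 0.348). Lgals1 held 528 and 661 CPM in Idh1-R132H and 1498 and 1500 CPM in Idh1-WT. These sums rest on 17 to 31 cells per library, and no gene passed with at least 4 markers, without dendritic marker cells or with Ly6c2 counted per 10000 UMIs.

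A direct test of the difference between the Ly6c2 subsets called 10 of 5698 genes (0.176%), with a log2 difference above 0 (2+ minus 0-1 cells) for 6 (0.105%) and below 0 for 4 (0.0702%). The genotype effect on Apoe, the apolipoprotein E gene, differed by -1.15 ± 0.187 (log2, SE; edgeR adjusted p = 6.51e-06), at -0.31 in 2+ cells and 0.86 in 0-1 cells, and that on Hmgb2, a chromatin protein gene of dividing cells, differed by 1.15 ± 0.214, at 0.02 in 2+ cells (edgeR adjusted p = 0.986) and -1.09 in 0-1 cells. None of the 10 was called in all 4 fits that left out 1 library. For Ifi27l2a the difference between subsets was -0.15 (edgeR adjusted p = 0.983), and for B2m -0.58 (0.109), neither past the threshold.

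Set against all other cells of the libraries, 26 of 12641 genes (0.206%) had a different genotype effect in the members, with a log2 difference above 0 (members minus other cells) for 14 (0.111%) and below 0 for 12 (0.0949%). In the other cells themselves 29 of 13256 genes (0.219%) passed, 14 higher (0.106%) and 15 lower (0.113%). B2m differed by 0.28 ± 0.054 (log2, SE; edgeR adjusted p = 0.000563), since its genotype difference was 0.33 in members and 0.05 in other cells. H2-D1 (0.28) and H2-K1 (0.32) differed likewise. Pglyrp1 differed by 0.80, at 0.69 in members and -0.12 in other cells, and Slpi by -0.60, at -1.06 in members and -0.47 in other cells, where it also passed. Irf8 differed by -0.41 and Prtn3 by -0.46. For Ifi27l2a the log2 fold change was 0.55 in other cells and did not pass there, and the difference of 0.46 from the members was not past the threshold (edgeR adjusted p = 0.863).

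Against the F13a1 Mpo progenitors, 25 of 10024 genes (0.249%) differed, with a log2 difference above 0 (members minus progenitors) for 8 (0.0798%) and below 0 for 17 (0.170%). In the progenitors themselves 55 of 10499 genes (0.524%) passed, 26 higher (0.248%) and 29 lower (0.276%). The class II genes were among those with the smallest p, with Cd74 at -1.31 and H2-Aa at -1.53, but they were scarce in progenitors, at 17.4 and 61.4 CPM in Idh1-R132H and 23.5 and 26.1 CPM in Idh1-WT for Cd74. Slpi fell in progenitors too (-0.44, edgeR adjusted p = 5.64e-07) and differed by -0.63 in members. Ifitm3 rose by 0.59 in progenitors, which was more than in members (difference -0.32), and Irf5 rose by 0.88 there (difference -0.71). B2m did not differ past the threshold (0.16, edgeR adjusted p = 0.46). Ifi27l2a was scarce in progenitors, at 27.6 and 42.4 CPM in Idh1-R132H and 19.0 and 17.7 CPM in Idh1-WT, and its difference of 0.05 did not pass (edgeR adjusted p = 0.989).

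**Figure D5:**
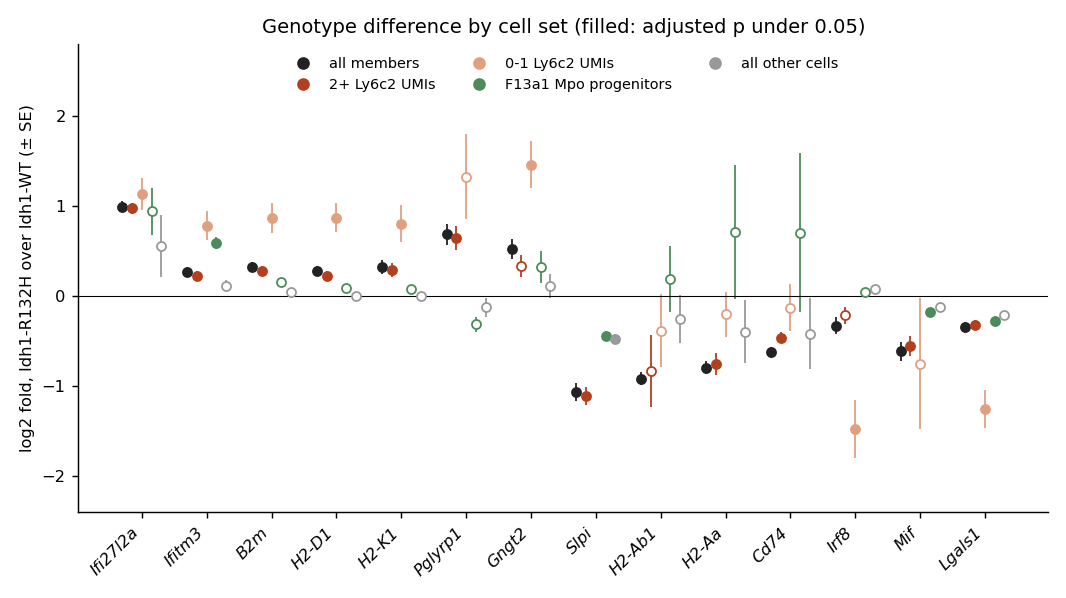
Log2 fold change of Idh1-R132H over Idh1-WT (± SE) for single genes in the monocyte-like cells, their 2 Ly6c2 subsets, the F13a1 Mpo progenitors and all other cells, with filled symbols for an edgeR adjusted p under 0.05. Slpi is filled in the members (-1.06), in the progenitors (-0.44) and in the other cells (-0.47), and B2m in the members (0.33) but not in the other cells (0.05).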

How the data were processed

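RNA was measured with 10x 3′ v2 single-cell libraries, 1 per mouse, from 2 Idh1-R132H and 2 Idh1-WT chimeras. The deposited files are UMI counts, not normalized, of every gene in every barcode, and include empty droplets. Cell Ranger 4.0.0, Seurat and the build GRCm38/mm10 are named in the submitters' processing notes. Coordinates came from GENCODE vM21, in which 27645 of 27998 features (98.7%) were found. A barcode was kept when it had 500 or more UMIs, 200 or more genes and no more than 10% of UMIs from mitochondrial genes. Because only 3′ ends are counted, levels are not divided by gene length and are compared between cells, not between genes.

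Counts of the members of each library were summed and tested with edgeR 4.0.16 (R 4.3.3, limma 3.58.1; TMM factors, filterByExpr, robust glmQLFit and glmQLFTest, Benjamini-Hochberg adjustment over all genes tested), with genotype only as a term. Differences between cell sets used 1 fit over both sums of each library, with library as a block. DESeq2 1.42.0 was an alternative. Shares were compared by two-sided exact permutation over libraries, whose smallest p is 0.333. Members against other cells, and the Ly6c2 subsets against each other, were described without a test. The labels number the libraries of a group as replicates. They do not say whether the cells given to the mice of a group came from separate donors. The libraries of a group may thus not be independent donors. The script was tested on simulated data. Precision is limited by 155 to 239 members and 1037841 to 1475588 UMIs per library.

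The members, gene lists and tests were chosen with earlier results of these data known. Named genes were up to 10 largest rises and 10 largest falls at a mean log2 CPM from 5 upwards, called list members, up to 3 list members by smallest p, and 16 fixed genes, of which 1 is not reported here. The other settings tried are a UMI minimum of 1000, at most 5% mitochondrial UMIs, at least 4 markers, other scalings, no filter on low counts, subtraction of free RNA, removal of cells by dendritic markers, granulocytic RNA, high UMIs, both sex-linked RNAs or shared barcodes, Xist-carrying cells only, a Ly6c2 limit per 10000 UMIs, the replicate block, and each library left out. Promoter windows came from RefSeq (GRCm38.p6).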

Additional observations from a re-analysis of the deposited data

Results flagged for a closer look

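Several genes had a genotype difference (log2, Idh1-R132H over Idh1-WT) that differed between 2 sets of cells in edgeR's test of that difference, and the sizes below are the difference in the first-named cells minus that in the second. Between members with 2 or more and with 0 or 1 Ly6c2 UMIs the sizes were -1.15 for Apoe, 1.15 for Hmgb2, 0.72 for Tmsb10, 1.82 for Id2, 0.96 for Lgals1, 1.69 for Cks1b, -4.06 for Cd7, 3.12 for Ccnb1, -1.19 for Gngt2 and -8.36 for Ufsp2. Apoe held 993 and 669 CPM in 2+ cells of Idh1-R132H and 1147 and 922 CPM in those of Idh1-WT, and 7444.5 and 3960 CPM in 0-1 cells of Idh1-R132H and 2494 and 4051 CPM in those of Idh1-WT. Ufsp2 had 4 and 7 UMIs in 0-1 cells of Idh1-R132H and 0 in those of both Idh1-WT libraries, so its size depends on the prior count of the fit and is no bound. Cd7, a gene of lymphoid and some dendritic cells, had 9 and 24 UMIs in 0-1 cells of Idh1-R132H and 5 and 2 in those of Idh1-WT, and 97.0% of its Idh1-R132H UMIs lay in 5 cells.

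Between the members and all other kept cells the sizes were -0.42 for the histone gene Hist1h2ap, 1.14 for the stress-response gene Nupr1, 0.43 for S100a6, 0.80 for Pglyrp1, -0.46 for Prtn3, -0.60 for Slpi, 0.28 for B2m, -0.49 for Mif, -0.33 for Stmn1 and 0.46 for Serp1. Nupr1 had 195 and 243 UMIs in members of Idh1-R132H and 120 and 137 in those of Idh1-WT, and 556 and 904 UMIs in other cells of Idh1-R132H and 974 and 1221 in those of Idh1-WT. S100a6 fell in the other cells (log2 fold change -0.30, edgeR adjusted p = 0.0174) and did not pass in the members (0.12). The other cells are a mix of types whose shares were not compared here.

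Between the members and the F13a1 Mpo progenitors the sizes were -1.31 for Cd74, -1.12 for H2-Ab1, -1.53 for H2-Aa, -1.24 for H2-Eb1, 0.99 for Pglyrp1, -0.63 for Slpi, -0.40 for Prtn3 and -0.32 for Hist1h2ap. Leaving out 1 library at a time kept 0 of 10, 3 of 26 and 2 of 25 calls of the 3 comparisons in every fit.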

How the results depend on the processing

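Counts of called genes moved with the tool, the choice of cells and single libraries. In all members (73) the count was 19 with DESeq2, 40 in Xist-carrying cells, 46 with at least 4 markers, 43 without the 5% of cells with most UMIs, 12 without the 10% richest in granulocytic RNA, and 37 to 64 with 1 library left out. In 2+ Ly6c2 members (38) it was 2 with DESeq2, 17 in Xist-carrying cells, 20 without dendritic markers, 22 without the granulocytic 10% and 20 to 37 with 1 library left out. In 0-1 Ly6c2 members (33) it was 5 with DESeq2, 0 with a Ly6c2 limit per 10000 UMIs, with at least 4 markers and without dendritic markers, 21 with free RNA subtracted, 16 without the granulocytic 10%, 20 without the top 5% by UMIs, and 7 to 69 with 1 library left out. At an unadjusted p under 0.05, edgeR gave 135, 49 and 33 genes in the settings with 0 calls, of 1169, 680 and 710 tested, against 197 of 1440 in the reported fit; DESeq2 was not run there. With 1 library left out the tests of differences called 0 to 24 genes between the Ly6c2 subsets (10), 7 to 20 against other cells (26) and 8 to 21 against progenitors (25). The cause was not tested.

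The share with 2+ Ly6c2 UMIs, 0.951 percentage points higher in Idh1-R132H, was -0.065 points with at least 4 markers, -1.425 points without dendritic markers, 3.31 points with cells thinned to 2000 UMIs, 2.87 points with the limit per 10000 UMIs and -0.612 to 2.51 points with 1 library left out. Small log2 fold changes turned round. Idh1 in all members was -0.032 with at least 4 markers and -0.071 to 0.20 with 1 library left out. F13a1 was -0.014 with at least 4 markers and -0.079 to 0.17 with 1 library left out, Klf4 -0.080 to 0.14, and Nr4a1 -0.36 in Xist-carrying cells and -0.22 to 1.24. Xist was 0.018 in Xist-carrying cells, as the choice of cells fixes. In Xist-carrying 2+ cells H2-Eb1 was 0.043 and Cd74 0.0079. In 0-1 cells Ifitm3 was -0.14 with at least 4 markers, and with 1 library left out H2-Ab1 ran from -0.78 to 0.098, H2-Aa from -0.55 to 0.12, H2-Eb1 from -0.55 to 0.28 and Cd74 from -0.51 to 0.20. Over single genes, 1581 values kept direction and side of the threshold, 465 lost and 9 gained a call, and 19 reversed.

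With the replicate number as a block the counts were 81, 53 and 57, and the 73, 38 and 33 genes were kept. Same-numbered libraries did not deviate together (correlations of -0.022, -0.020 and -0.068), so the numbers are not shown to pair mice. Removal of every carrier of a granulocytic marker could not be run, since it left 0 to 4 members per library. Removal of the granulocytic 10%, of cells with both sex-linked RNAs and of shared barcodes was chosen after seeing the data.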

Other observations

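Other gene groups of the members gave values without a call. Of 12 tested cholesterol synthesis genes 9 had the lower estimate in Idh1-R132H members, with a median log2 fold change of -0.31, and none passed the test. Of 94 tested ribosomal protein genes none passed and the median was -0.0021. None of 14 glycolysis genes, 18 glutathione and antioxidant genes or 12 mitochondrially encoded genes passed. Cells with both an Xist and a Y-linked UMI numbered 7 and 8 among the Idh1-R132H members and 0 and 0 among the Idh1-WT members.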
